A study of Mus musculus with 55 samples.

Results

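Bdnf, its receptor Ntrk2 and 4 genes for secreted proteins or peptides that are known to follow neuronal activity, Vgf, Scg2, Inhba and Igf1, were read out in every stage, stimulus and time of a 3′ mRNA sequencing study of mouse neurons. The 6 genes were taken by name from the count tables of 2 experiments, through the RefSeq transcript with the most counts, out of 28492 genes in the first table, which followed maturation, and 28216 in the second, which compared stimuli. All 6 passed the filter on low counts in both, where 11746 and 12027 genes were tested. Primary neuronal cultures were made from the forebrain (cortex and hippocampus) of CD1 embryos of mixed sex, at E16 to E17.5 in the sample annotation and at a single day within that range in the study's methods, and no group carried an engineered allele.

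The maturation experiment held 28 samples. Of these, 15 were developing cultures at 7 days in vitro (7DIV) and 13 were mature cultures that are called 21DIV here and are annotated as 23 days. Cultures were left unstimulated (basal), depolarized with 55 mM KCl, or given 50 µM bicuculline with 2.5 mM 4-aminopyridine (Bic+4AP), for 15 or 180 min. Each group had 3 samples apart from Bic+4AP at 21DIV, with 2 at each time. Bicuculline (Bic) blocks GABA-A receptors, so that synaptic inhibition is removed, and 4-aminopyridine blocks potassium channels. The stimuli experiment held 27 samples at 21DIV. They were basal cultures (n = 3), cultures given 50 µM Bic without 4-aminopyridine or 55 mM KCl for 15, 45 or 180 min (n = 2 each), cultures kept for 48 h in 1 µM tetrodotoxin, a sodium channel blocker that silences firing (basal TTX, n = 4), and cultures 15, 45 and 180 min after that toxin was washed out (TTXw, n = 3, 2 and 3). By the study's methods the toxin was removed by repeated exchange for fresh medium, with its controls washed in the same way. Bic and KCl were instead added by replacing a small volume of conditioned medium. In comparisons of groups with and without TTX, medium handling and TTX therefore cannot be told apart.

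Totals of counts on genes ran from 1659722 to 14012872 per sample for maturation and from 1177500 to 3909487 for stimuli. Levels are given as CPM, counts scaled to a common library total with TMM factors within each experiment. The experiments were normalized separately, so levels were not compared between them. All 5 neuronal markers checked (Rbfox3, Snap25, Map2, Tubb3, Slc17a7) were detected in every group, with a summed level of 3127 to 3359.7 CPM in basal 7DIV, 3320.0 to 4168 CPM in basal 21DIV and 3227 to 3330.3 CPM in the basal samples of the stimuli experiment. Astrocyte markers were present as well, as described beside Ntrk2. The annotation does not say whether samples of a group came from separate cultures or litters, so p-values measure the spread between these samples, which may be technical. In bulk RNA, fewer cells of a type and less RNA per cell cannot be told apart.

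Bdnf encodes brain-derived neurotrophic factor, which is released from neurons and acts through TrkB, the receptor tyrosine kinase encoded by Ntrk2, on survival, dendrite growth and synaptic plasticity. Neurons store it in dense-core vesicles together with proteins of the granin family, which are cleaved into neuropeptides, and Vgf and Scg2 (secretogranin II) belong to this group. Inhba encodes the beta A subunit of inhibin and activin A, a ligand of the TGF-beta family, and Igf1 encodes insulin-like growth factor 1, which acts through its own receptor tyrosine kinase. Transcription of several of these genes is known to be raised by calcium entry, partly through the factor CREB, which binds the cAMP response element (CRE).

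In GRCm38.p6, Bdnf lies at chr2:109674700-109727043, Ntrk2 at chr13:58806472-59133970, Vgf at chr5:137025301-137033351, Scg2 at chr1:79434366-79440026 on the minus strand, Inhba at chr13:16004256-16031609 and Igf1 at chr10:87858265-87937047. The 12 RefSeq transcripts of Bdnf in the tables begin at different promoters but share their last exon, where 3′ reads fall, so transcripts from different promoters could not be told apart. RefSeq promoter windows of 300 bases, from 250 before to 50 after a start, were held for 11 starts of 5 of the 6 genes, and for Vgf none. The full CRE, TGACGTCA, was found in 1 of these 11 windows, that of Scg2, against 1.79% of all 32851 windows. Its core TGACG, which also lies within the full CRE, was found in 2 of the 11, against 20.8% of all. Both windows are shown because they carry these letters. Capitals mark the CRE in Scg2, which begins at position -68 from the start, and in Bdnf the core at position -35, which reads TGACG on the other strand.
Scg2, chr1:79439977-79440276, minus strand: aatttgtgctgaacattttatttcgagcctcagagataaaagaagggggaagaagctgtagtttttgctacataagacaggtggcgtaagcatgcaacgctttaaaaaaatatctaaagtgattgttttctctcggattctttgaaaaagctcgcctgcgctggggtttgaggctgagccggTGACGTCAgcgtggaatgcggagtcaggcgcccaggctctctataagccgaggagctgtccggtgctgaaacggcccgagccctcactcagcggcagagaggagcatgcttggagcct
Bdnf, start of NM_001048141.1, chr2:109692186-109692485, plus strand: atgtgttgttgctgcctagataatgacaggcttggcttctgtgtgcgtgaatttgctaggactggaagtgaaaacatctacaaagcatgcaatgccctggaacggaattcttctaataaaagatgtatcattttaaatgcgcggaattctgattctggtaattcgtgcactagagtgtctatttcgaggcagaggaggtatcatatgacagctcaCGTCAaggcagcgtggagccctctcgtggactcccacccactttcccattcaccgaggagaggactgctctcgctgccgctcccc

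Both strands were searched, and the letters of a motif are a description and not a site of binding. The AP-1 motif TGANTCA was found in 2 of the 11 windows, a further Bdnf start and an Igf1 start, against 7.81% of all windows. The EGR motif GCGNGGGCG was found in 0 of the 11, against 5.55% of all.

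At 7DIV none of the 6 genes was called in any of the 4 comparisons of a stimulus with basal. At 21DIV Bdnf, Inhba, Scg2 and Vgf were each called higher at 1 time or more with KCl and with Bic+4AP. The direct test of a stage difference, given below, was passed by Scg2 and Vgf, by Inhba with Bic+4AP only, and by Bdnf in no comparison. A gene was called when its adjusted p (edgeR quasi-likelihood test, Benjamini-Hochberg over all tested genes) was under 0.05 and its change was at least 1.5-fold. At 7DIV, 0 of 24 values were called by edgeR or by DESeq2, and 3 of the 24 had an unadjusted p under 0.05. Their log2 fold changes lay between -0.41 and 0.72 with standard errors of up to 0.59. Of all tested genes, 0% were called at 7DIV after 15 min of KCl, 1.98% after 180 min of KCl, 0% after 15 min of Bic+4AP and 0% after 180 min of Bic+4AP. At 21DIV, 4 of the 6 genes rose after 15 min of KCl, against 3.21% of all tested genes called higher. After 180 min of KCl 2 of the 6 rose, against 2.98%. With Bic+4AP for 15 min none of the 6 was called by edgeR or DESeq2 and none had an unadjusted p under 0.05, against 0.0511% of all genes called in either direction. After 180 min of Bic+4AP 4 of the 6 rose, against 7.39% of all. Cell type markers differed as well in that comparison: 3 of 5 neuronal markers were lower (a sum of 3320.0 to 4168 CPM in basal and 2681 to 3117 CPM after Bic+4AP), as were 2 of 6 astrocyte markers and 2 of 5 tested oligodendrocyte lineage markers, of which 1 was higher, while 1 of 7 markers of GABAergic neurons and 2 of 3 tested microglial markers were higher. After 15 and after 180 min of KCl 1 of the 5 neuronal markers was lower and no astrocyte marker was called. The part of these markers in the rises was not tested. Fos, Arc and Npas4, which mark that a stimulus acted, all rose at 21DIV after KCl for 15 min and Bic+4AP for 15 and 180 min. After 180 min of KCl at 21DIV Fos (3.45 ± 0.30, log2) and Npas4 (2.80 ± 0.31) rose. Arc was not called there (0.87 ± 0.32, edgeR adjusted p = 0.112). At 7DIV Fos (2.03 ± 0.28, log2) and Npas4 (1.94 ± 0.31) rose after 180 min of KCl and Arc was not called. In the other 3 comparisons at 7DIV none of Fos, Arc and Npas4 was called by edgeR, and 1 of these 9 values had an unadjusted p under 0.05, that of Fos after 180 min of Bic+4AP (0.69 ± 0.28, log2).

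In the stimuli experiment the largest differences were between cultures kept in TTX and cultures that were not. In basal TTX 5 of the 6 genes fell, against 10.8% of all tested genes called lower. Ntrk2 is counted there by its transcript with the most counts, and a shorter transcript of it rose, as described below. Bic raised 2 of the 6, Bdnf and Inhba, at each time, against 2.4%, 4.5% and 0.69% of all genes at 15, 45 and 180 min. KCl raised the same pair at 15 min and Inhba alone was called at 45 min, against 4.52% and 0.607% of all genes called higher. Of the 5 neuronal and 6 astrocyte markers, 2 and 1 were also higher after 15 min of Bic, 2 and 4 after 45 min of Bic, 2 and 2 after 15 min of KCl and 0 and 1 after 45 min of KCl, and their part in these rises was not tested. At 180 min of KCl none of the 6 was called by edgeR or DESeq2, 1 of them had an unadjusted p under 0.05, and 0.765% of all genes were called in either direction. After TTX washout none of the 6 was called at 15 or 45 min by edgeR or DESeq2, with 1 of the 6 at an unadjusted p under 0.05 at each time, against 0% and 0.382% of all genes. At 180 min after washout 1 of the 6 rose and 1 fell, against 7.33% called higher and 6.69% called lower. Fos, Arc and Npas4 all rose with Bic at each time and with KCl at 15 and 180 min, while Fos was not called at 45 min of KCl. At 15 min after washout none of these marks was called, with Fos at 1.11 ± 0.30 (SE, edgeR adjusted p = 0.544). All of them rose at 45 min after washout, and Npas4 was not called at 180 min. Comparisons within a stage of the maturation experiment share its basal samples, the Bic and KCl comparisons of the stimuli experiment share theirs, and all TTXw comparisons share basal TTX.

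**Figure D1:**
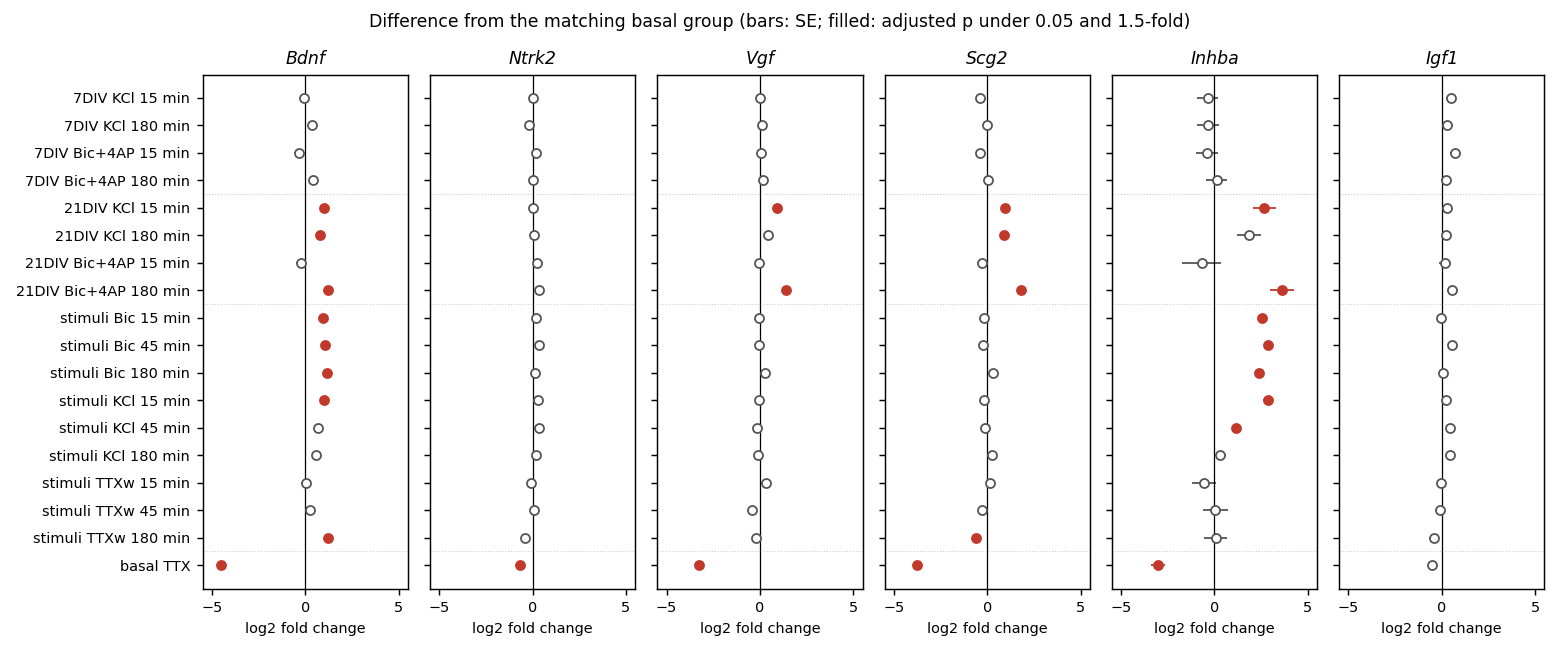
Log2 fold change (± SE, edgeR) of each of the 6 genes in 18 comparisons of a stimulus, stage or TTX with its basal samples. Filled red points passed both thresholds: none at 7DIV, Bdnf, Inhba, Scg2 and Vgf in KCl 15 min and Bic+4AP 180 min at 21DIV, and 5 of the 6 genes, all lower, in basal TTX. Ntrk2 is shown by its transcript with the most counts only.

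Bdnf, the neurotrophin, differed little between the basal cultures of both stages. Its levels were 217, 214 and 166 CPM in the 3 basal samples at 7DIV and 290.5, 193 and 216 CPM in the 3 at 21DIV. The ranges overlapped, and the log2 difference of 21DIV from 7DIV was 0.26 ± 0.17 (SE, edgeR adjusted p = 0.25). At 7DIV the 3 samples after 180 min of KCl, at 239.7, 254 and 266 CPM, and the 3 after 180 min of Bic+4AP, at 268, 276 and 244 CPM, all lay above the basal samples by a small margin that did not pass the test (0.35 ± 0.23 and 0.41 ± 0.23 on the log2 scale, edgeR adjusted p = 0.579 and 0.858).

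At 21DIV Bdnf rose 2.02-fold after 15 min of KCl, to 511, 578 and 325 CPM. All 3 samples lay above all 3 basal samples, with a log2 fold change of 1.02 ± 0.23 (SE, edgeR adjusted p = 0.00439). Without basal replicate 2 the change was 0.89 and missed the threshold (edgeR adjusted p = 0.0502). After 180 min of KCl the samples stood at 203, 421 and 579.8 CPM, so that replicate 1 lay within the basal range and the other two above it. The log2 fold change was 0.78 ± 0.22 (SE, edgeR adjusted p = 0.0343), and the call was lost without basal replicate 2 (edgeR adjusted p = 0.161) or 3 (0.139) and without KCl replicate 2 (0.13) or 3 (0.359), and with only the compared groups in the fit (0.154). The 2 samples after 15 min of Bic+4AP, at 208 and 188 CPM, did not stand above basal. After 180 min they did, at 497 and 585 CPM, and Bdnf rose by 1.21 ± 0.25 (SE, edgeR adjusted p = 0.000952) on the log2 scale. The 180 min samples were above the 15 min samples by 1.45 ± 0.28 (SE, edgeR adjusted p = 0.00095), against 6% of all genes called higher in that comparison.

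Basal Bdnf was 647, 797 and 413 CPM where stimuli were compared. With Bic it was 1212 and 1200.0 CPM at 15 min, 1059 and 1516 CPM at 45 min and 1446 and 1307 CPM at 180 min. Every Bic sample lay above every basal sample, and the log2 fold changes were 0.96 ± 0.18 (SE, edgeR adjusted p = 0.000734), 1.06 ± 0.18 (SE, edgeR adjusted p = 8.71e-05) and 1.15 ± 0.18 (SE, edgeR adjusted p = 5.28e-05). With KCl the levels were 1229 and 1202 CPM at 15 min, 900.3 and 1054 CPM at 45 min and 1012 and 843 CPM at 180 min. These samples also all lay above basal, but only the 15 min change passed, at 0.97 ± 0.18 (SE, edgeR adjusted p = 0.000291). At 45 and 180 min the log2 values were 0.66 ± 0.18 (SE, edgeR adjusted p = 0.0736) and 0.58 ± 0.18 (SE, edgeR adjusted p = 0.128). At matched times Bic and KCl did not differ for Bdnf by the test: the log2 differences, Bic minus KCl, were -0.011 ± 0.20 (SE, edgeR adjusted p = 1), 0.40 ± 0.20 (SE, edgeR adjusted p = 0.532) and 0.57 ± 0.20 (SE, edgeR adjusted p = 0.225) at 15, 45 and 180 min.

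In basal TTX the 4 samples held 32.6, 25, 27.9 and 23.5 CPM of Bdnf, all far below the lowest basal sample. Bdnf fell by 4.53 ± 0.19 (SE, edgeR adjusted p = 1.26e-20) on the log2 scale, and the mean in TTX was 0.044 of the basal mean. Washout left it at 23, 40.2 and 21.9 CPM after 15 min and 35.3 and 28.4 CPM after 45 min, which overlapped basal TTX. At 180 min it stood at 82.4, 45.9 and 61.5 CPM in the 3 samples, all above basal TTX and all still far below cultures never given TTX. It rose by 1.22 ± 0.23 (SE, edgeR adjusted p = 0.000101) over basal TTX, 2.32-fold in mean level, and by 1.19 ± 0.24 (SE, edgeR adjusted p = 0.000381) from 15 to 180 min. The log2 response of Bdnf to washout did not differ by the test from the response to Bic (0.065 ± 0.28 SE, edgeR adjusted p = 0.928) or KCl (0.64 ± 0.29 SE, edgeR adjusted p = 0.192) at 180 min. At 15 and 45 min its mean was 1.04- and 1.17-fold that of basal TTX after washout. With Bic it was 1.95- and 2.08-fold basal, and with KCl 1.96- and 1.58-fold. The differences of these responses were not called either.

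**Figure D2:**
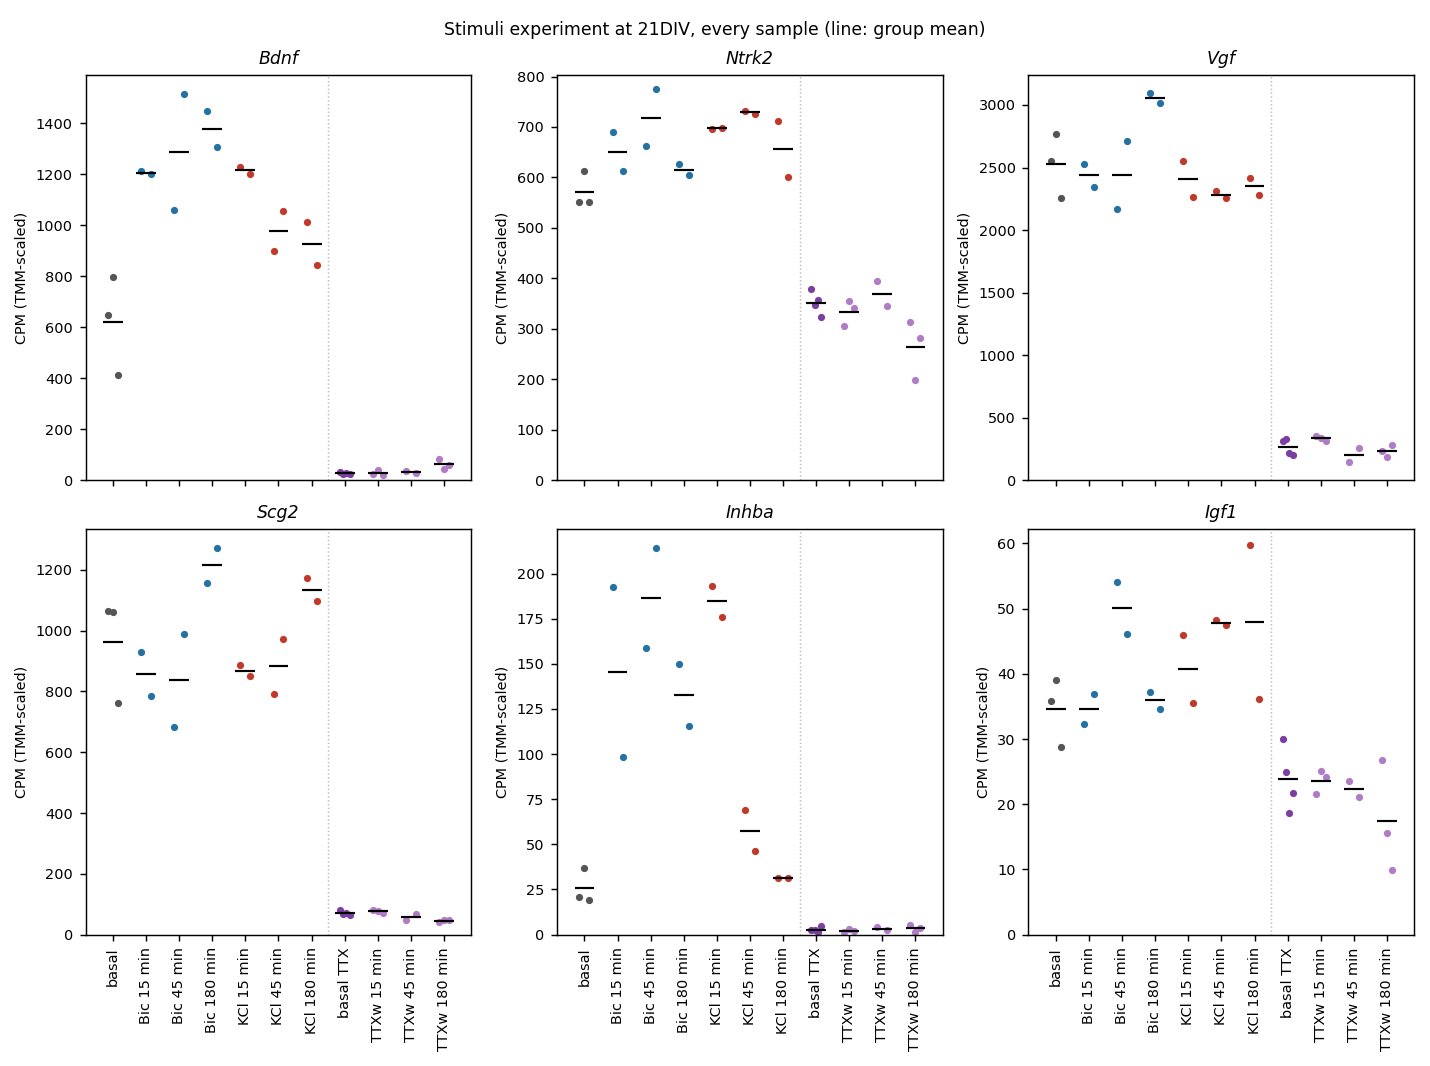
Level (CPM, within the stimuli experiment) of the 6 genes in each sample of the 11 groups at 21DIV, 1 point a sample. Bdnf, Scg2, Vgf and Inhba lie lower in every basal TTX and TTXw sample than in every sample never given TTX, and Bdnf and Inhba lie above basal after 15 min of Bic or KCl.

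Ntrk2 encodes TrkB, the receptor of Bdnf. The transcript with the most counts ends with the exons of the kinase domain and is called full-length here. Basal levels were 498, 357 and 361 CPM at 7DIV and 335, 382 and 349.6 CPM at 21DIV, which overlapped, with a log2 difference of -0.16 ± 0.15 (SE, edgeR adjusted p = 0.411). No stimulus changed it past both thresholds at either stage. In the stimuli experiment the 15 samples never in TTX ran from 550 to 775 CPM with a median of 662 CPM. In basal TTX the levels were 379.8, 347, 357 and 323 CPM against 552, 614 and 550.4 CPM in basal, with no overlap. The full-length transcript fell by 0.70 ± 0.11 (SE, edgeR adjusted p = 3.5e-06). With counts summed over all Ntrk2 transcripts, some of which repeat the same reads, the log2 value was -0.30 and not called. At 180 min after washout it was at 313, 199 and 282 CPM, all under basal TTX, a log2 difference of -0.42 ± 0.12 (SE, edgeR adjusted p = 0.0087) that is smaller than 1.5-fold. This response differed from that to Bic at 180 min by -0.52 ± 0.17 (SE, edgeR adjusted p = 0.0494) and from that to KCl by -0.61 ± 0.18 (SE, edgeR adjusted p = 0.023), against 9.75% and 8.31% of all genes that differed in these tests. The former was lost with the replicate block (edgeR adjusted p = 0.0959), with thinned counts (0.0691) and when any 1 of 7 libraries was left out, and the latter with any 1 of 3.

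A shorter RefSeq transcript of Ntrk2, NM_008745.3, has 13 exons, ends at position 58933120 and encodes the truncated receptor that lacks the kinase domain. The full-length NM_001025074.2 has 18 exons and ends at 59133970. As their 3′ ends are far apart, their 3′ counts are separate. This pair was looked at after the values were seen. Further Ntrk2 transcripts with counts of their own were not part of it. The largest held 17156 counts over the maturation samples, where the truncated transcript held 10609. Over the stimuli samples these totals were 10775 and 14622. Shares given below are therefore of this pair and not of all Ntrk2 RNA. The truncated transcript was at 9, 33.7 and 36.8 CPM in basal 7DIV and 104, 103 and 94.6 CPM in basal 21DIV. All 3 mature samples were above all 3 developing ones, and it rose by 1.92 ± 0.31 (SE, edgeR adjusted p = 0.000286) on the log2 scale. Where stimuli were compared it was at 165, 181 and 152 CPM in basal and 329.9, 283, 266 and 284 CPM in basal TTX. Here it rose by 0.82 ± 0.14 (SE, edgeR adjusted p = 9.2e-06) while the full-length transcript fell. At 180 min after washout it was at 440.3, 554 and 432 CPM, above every basal TTX sample, and it rose by 0.71 ± 0.13 (SE, edgeR adjusted p = 9.04e-05) over basal TTX. Without TTXw replicate 2 that change was 0.58, just under 1.5-fold (edgeR adjusted p = 0.00357). The response of the truncated transcript to washout exceeded that to Bic by 0.76 ± 0.21 (SE, edgeR adjusted p = 0.0141) and that to KCl by 0.76 ± 0.21 (SE, edgeR adjusted p = 0.0198) at 180 min.

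The truncated transcript made up 6.56% ± 4.16 (SD, n = 3) of the counts of both in basal 7DIV and 22.1% ± 1.36 (SD, n = 3) in basal 21DIV. Among the stimuli samples its share was 22.5% ± 0.766 (SD, n = 3) in basal, 45.2% ± 1.88 (SD, n = 4) in basal TTX and 64.2% ± 8.22 (SD, n = 3) at 180 min after washout. Over all 15 samples never in TTX it ran from 18.3% to 24.1%, and over the 12 in TTX or after it from 41.7% to 73.6%, so that these samples of the stimuli experiment did not overlap. The 13 samples at 21DIV of the maturation experiment, none of them given TTX, ran from 14.3% to 45.4% with a median of 23.1%. The highest of these, KCl at 15 min replicate 1, lay within the range of the samples in TTX or after it, while the other two of its group were at 24.76% and 25.03%. By exact two-sided permutation tests of the share, the p-values were 0.1 for 21DIV against 7DIV, 0.0571 for basal TTX against basal and 0.0571 for 180 min of washout against basal TTX, each of which is the smallest these designs allow. The truncated receptor is known from astrocytes, and astrocyte markers were also higher in these comparisons, but not in step with its share throughout. After 45 min of Bic 4 of the 6 astrocyte markers were called higher, with a share of 22.9% ± 0.155 (SD, n = 2). After 180 min of Bic+4AP at 21DIV 2 of the 6 were called lower, with a share of 21.6% ± 6.25 (SD, n = 2). The 6 markers Gfap, Aqp4, Aldh1l1, Slc1a3, Gja1 and Sox9 had a summed level of 187 to 306 CPM in basal 7DIV and 663 to 805 CPM in basal 21DIV, and 5 of the 6 rose between these stages. Their sum was 895 to 1215 CPM in basal, 2220.2 to 2909 CPM in basal TTX, where 6 of 6 were called higher, and 3737 to 5293 CPM at 180 min after washout, where 3 of 6 were called higher over basal TTX. Of the oligodendrocyte lineage markers 4 of 5 tested were higher in basal TTX, while of 5 neuronal markers 0 were higher and 1 was lower, with sums of 3227 to 3330.3 CPM in basal and 2381 to 2891 CPM in TTX. At 180 min after washout Scg2 and, by less than 1.5-fold, full-length Ntrk2 were lower than in basal TTX, while truncated Ntrk2 was higher. There the neuronal sum was 1663 to 2086 CPM, with 1 of the 5 called lower, and 5 of 6 tested markers of GABAergic neurons were called lower. The part of the glial share in the Ntrk2 values, and of the neuronal and glial markers in the lower levels of the other genes in TTX and of Scg2 after washout, was not tested.

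**Figure D3:**
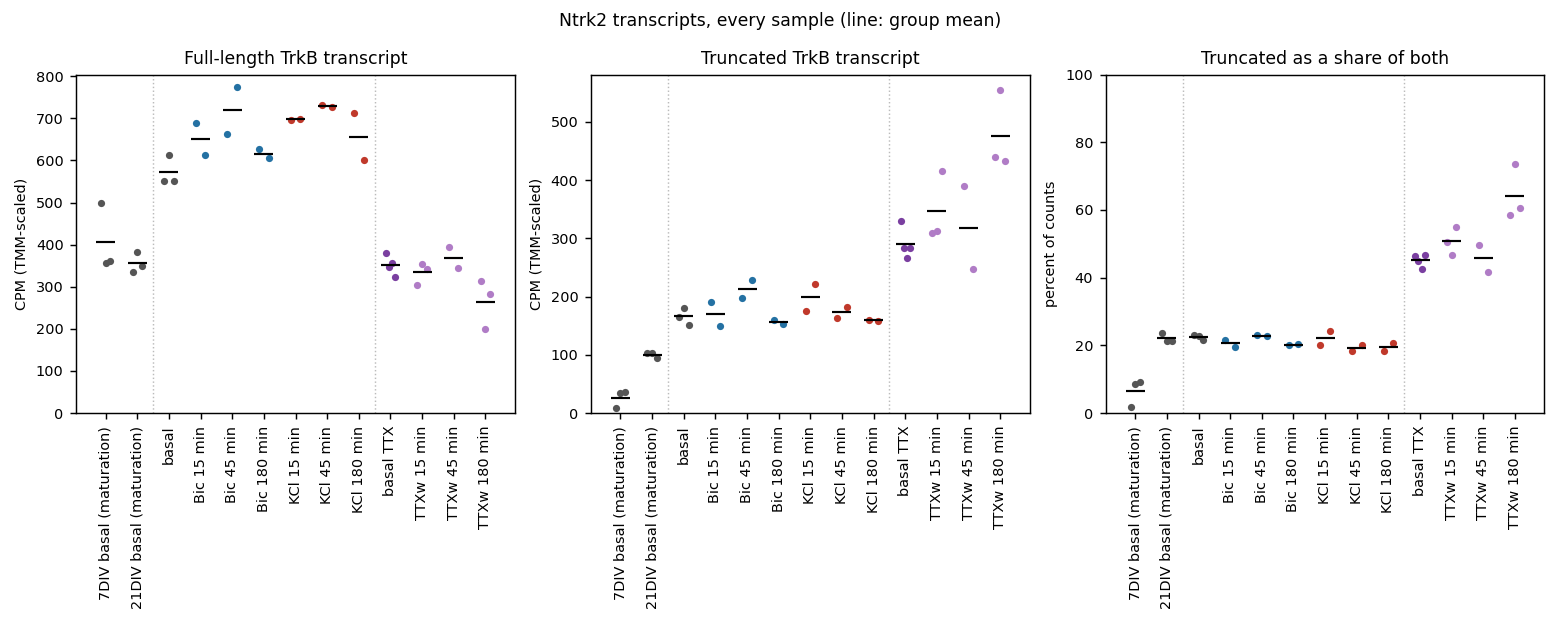
Full-length Ntrk2 (CPM), truncated Ntrk2 (CPM) and the truncated share (% of the counts of both) in each sample of 13 groups, 1 point a sample, with the 2 experiments normalized separately. The share is lowest at 7DIV, and in the stimuli experiment every sample in TTX or after it lies above every sample never given TTX.

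Vgf, a granin-like precursor of neuropeptides, rose with maturation. Basal levels were 1447, 1124 and 1176 CPM at 7DIV and 3386, 2064 and 2221 CPM at 21DIV. All mature samples were above all developing ones, with a log2 difference of 1.06 ± 0.17 (SE, edgeR adjusted p = 0.000262). Together with Inhba, which fell, it made 2 of the 6 genes called between the basal stages, against 33.1% of all 10510 genes tested there. Cell type markers differed as well between these stages, with 3 of 5 neuronal markers higher and 2 lower. Also higher were 5 of 7 markers of GABAergic neurons, 5 of 6 astrocyte markers and 5 of 5 tested oligodendrocyte lineage markers. The 1 tested microglial marker was lower. Their part in the differences of the 6 genes between the basal stages was not tested. KCl for 15 min at 21DIV brought Vgf to 5630.4, 4521 and 4561 CPM, above all basal samples, and it rose by 0.94 ± 0.16 (SE, edgeR adjusted p = 0.000592). After 180 min of KCl it was at 2469, 4029 and 3861 CPM, with replicate 1 inside the basal range and the other two above it, and the log2 value of 0.43 ± 0.16 (SE, edgeR adjusted p = 0.115) was not called. Without that replicate it was 0.62 and called (edgeR adjusted p = 0.0112). After Bic+4AP it was at 2341 and 2546 CPM at 15 min, within the basal range, and at 7332 and 6309 CPM at 180 min. The 180 min samples held the highest levels of the maturation experiment, with a rise of 1.42 ± 0.18 (SE, edgeR adjusted p = 2.94e-06), 2.67-fold in mean level. From 15 to 180 min of Bic+4AP Vgf rose by 1.48 ± 0.20 (SE, edgeR adjusted p = 2.33e-05).

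Scg2, secretogranin II, also rose with both stimuli at 21DIV of the maturation experiment. Basal levels were 509, 442 and 495 CPM at 7DIV and 823, 589.8 and 557 CPM at 21DIV, which did not overlap, although the log2 difference of 0.47 ± 0.15 (SE, edgeR adjusted p = 0.0228) is less than 1.5-fold. The 21DIV samples after 15 min of KCl were at 1404, 1248 and 1223 CPM, all above basal, and Scg2 rose by 0.98 ± 0.16 (SE, edgeR adjusted p = 0.000428). After 180 min they were at 781, 1491 and 1422 CPM, where replicate 1 again lay within the basal range, and the rise was 0.91 ± 0.16 (SE, edgeR adjusted p = 0.000788). After 15 min of Bic+4AP, at 484 and 583 CPM, Scg2 was not above basal. After 180 min it was at 2239 and 2394 CPM, 3.53-fold over basal in mean level, a rise of 1.82 ± 0.18 (SE, edgeR adjusted p = 4.96e-08). Its rise from 15 to 180 min of Bic+4AP was 2.12 ± 0.21 (SE, edgeR adjusted p = 4.2e-07). At 7DIV the levels after 15 min of KCl were 375, 387 and 361 CPM, all under the basal samples, with a log2 value of -0.36 ± 0.16 (SE, edgeR adjusted p = 0.853).

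In the stimuli experiment neither granin was called with Bic or KCl at any time. Basal Vgf was 2549, 2771 and 2255 CPM and basal Scg2 1065, 1062 and 761 CPM. After 180 min of Bic Vgf was at 3096 and 3016 CPM and Scg2 at 1156 and 1273 CPM. Both pairs lay above all basal samples, with log2 values of 0.28 ± 0.17 (SE, edgeR adjusted p = 0.676) for Vgf and 0.34 ± 0.14 (SE, edgeR adjusted p = 0.442) for Scg2. For 15 min of KCl the log2 values were -0.067 ± 0.17 (SE, edgeR adjusted p = 0.864) for Vgf and -0.15 ± 0.14 (SE, edgeR adjusted p = 0.594) for Scg2, beside the rises at 21DIV in the maturation experiment above. That difference between the experiments was not tested, and Bic was given without 4-aminopyridine in the stimuli experiment.

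In basal TTX both granins were far lower. Vgf was at 316, 334, 215 and 205 CPM and fell by 3.24 ± 0.15 (SE, edgeR adjusted p = 1.51e-19). Scg2 was at 80.5, 66.2, 70.8 and 64.4 CPM and fell by 3.78 ± 0.14 (SE, edgeR adjusted p = 4.33e-23). No TTX sample of either gene came near a basal one, and the mean levels in TTX were 0.106 (Vgf) and 0.0732 (Scg2) of basal. Neither rose past both thresholds after washout. At 15 min Vgf was 1.25-fold over basal TTX in mean level, with 2 of 3 samples above all 4 of basal TTX, and was not called. Vgf stood at 356, 337 and 311 CPM at 15 min, 142.5 and 257 CPM at 45 min and 237, 183 and 282 CPM at 180 min, overlapping basal TTX, with a log2 value of -0.20 ± 0.15 (SE, edgeR adjusted p = 0.418) at 180 min. Scg2 went from 82.3, 77.6 and 70.9 CPM at 15 min to 42.5, 48.3 and 47.1 CPM at 180 min, and all 3 of the later samples were below all 4 of basal TTX. It fell by 0.60 ± 0.17 (SE, edgeR adjusted p = 0.00697) against basal TTX, and it fell by 0.74 ± 0.17 (SE, edgeR adjusted p = 0.00168) from 15 to 180 min. The former value dropped under 1.5-fold without basal TTX replicate 1 (-0.54) or TTXw replicate 1 (-0.56). The Scg2 response to washout at 180 min lay under that to Bic, with a log2 difference of -0.94 ± 0.22 (SE, edgeR adjusted p = 0.00377), and under that to KCl, with -0.84 ± 0.22 (SE, edgeR adjusted p = 0.0107). The latter was lost without KCl replicate 1 (edgeR adjusted p = 0.0551).

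Inhba, the activin A subunit, moved over a wide range, from low counts. Basal levels were 20.8, 40.5 and 18.7 CPM at 7DIV and 6.22, 3.4 and 2.1 CPM at 21DIV. All mature samples were below all developing ones, and Inhba fell by 2.74 ± 0.42 (SE, edgeR adjusted p = 0.000176) on the log2 scale. After 15 min of KCl at 21DIV it was at 10.7, 56.5 and 8.9 CPM, above all basal samples, with replicate 2 far above the others. It rose by 2.68 ± 0.61 (SE, edgeR adjusted p = 0.00553), and the call was lost without that replicate (1.37, edgeR adjusted p = 0.14) or without basal replicate 3 (2.33, edgeR adjusted p = 0.0573). After 180 min of KCl it was at 3.11, 13 and 25.7 CPM, with replicate 1 again inside the basal range. The log2 value of 1.85 ± 0.62 (SE, edgeR adjusted p = 0.0751) was not called, and without that replicate it was 2.33 and called (edgeR adjusted p = 0.0114). After 15 min of Bic+4AP the 2 samples, at 1.71 and 2.75 CPM, rested on as few as 3 counts. After 180 min they were at 69.3 and 23.1 CPM, above every basal sample but far apart from each other, and Inhba rose by 3.61 ± 0.64 (SE, edgeR adjusted p = 0.000233). With each library left out in turn that value ran from 2.59, without the 180 min replicate 2, to 4.18, and stayed called. From 15 to 180 min it rose by 4.30 ± 0.92 (SE, edgeR adjusted p = 0.00225), a call that was lost without the 180 min replicate 2 (3.29, edgeR adjusted p = 0.0615).

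Basal Inhba was 20.9, 36.8 and 19.3 CPM where stimuli were compared. With Bic it was 193 and 98.1 CPM at 15 min, 159 and 214 CPM at 45 min and 149.9 and 115.4 CPM at 180 min, all above basal. It rose by 2.55 ± 0.24 (SE, edgeR adjusted p = 8.08e-10), 2.87 ± 0.23 (SE, edgeR adjusted p = 6.05e-12) and 2.37 ± 0.23 (SE, edgeR adjusted p = 1.65e-09), or 5.66-, 7.26- and 5.16-fold in mean level. With KCl it was at 193 and 176 CPM at 15 min, 68.9 and 46.2 CPM at 45 min and 31.5 and 31.6 CPM at 180 min. The rise with KCl was 2.85 ± 0.23 (SE, edgeR adjusted p = 1.4e-11) at 15 min and 1.18 ± 0.25 (SE, edgeR adjusted p = 0.0104) at 45 min, and at 180 min the samples lay within the basal range (0.31 ± 0.30 SE, edgeR adjusted p = 0.739). The 45 min call was lost without basal replicate 1 (edgeR adjusted p = 0.109) or 5 (0.108) and without KCl replicate 1 (0.435), and with DESeq2 (DESeq2 adjusted p = 0.108).

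Inhba differed between Bic and KCl at the later times. From 15 to 180 min of KCl Inhba fell by 2.55 ± 0.28 (SE, edgeR adjusted p = 1.08e-07), against 2.12% of all genes called lower there. Under Bic the same difference was -0.18 ± 0.23 (SE, edgeR adjusted p = 0.834). Bic samples exceeded KCl samples by 1.69 ± 0.24 (SE, edgeR adjusted p = 2.29e-05) at 45 min and 2.07 ± 0.28 (SE, edgeR adjusted p = 1.21e-05) at 180 min, with no overlap, and at 15 min the log2 difference was -0.30 ± 0.23 (SE, edgeR adjusted p = 1). The 45 min difference was lost with counts summed over transcripts (edgeR adjusted p = 0.0576). Inhba was the only one of the 6 genes that differed between Bic and KCl at 45 or 180 min, against 0.698% and 0.723% of all genes. At 15 min none of the 6 differed by edgeR or DESeq2, none had an unadjusted p under 0.05, and 0% of all genes differed.

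In basal TTX Inhba was at 2.66, 2.32, 1.43 and 4.7 CPM, on 2 to 13 counts a sample. All 4 were below all basal samples, and it fell by 3.03 ± 0.36 (SE, edgeR adjusted p = 1.28e-08). After washout it was at 1.51, 2.87 and 2.25 CPM at 15 min and 5.23, 1.42 and 3.8 CPM at 180 min, overlapping basal TTX. Its response to washout lay under that to Bic, with log2 differences of -3.12 ± 0.69 (SE, edgeR adjusted p = 0.00938), -2.83 ± 0.69 (SE, edgeR adjusted p = 0.0237) and -2.30 ± 0.66 (SE, edgeR adjusted p = 0.0197) at 15, 45 and 180 min, and under that to KCl at 15 min, with -3.41 ± 0.69 (SE, edgeR adjusted p = 0.00292). In these tests 1 of the 6 genes differed at 15 min from Bic, against 2.01% of all genes, 1 at 45 min, against 1.8%, and 1 at 15 min from KCl, against 4.08%. At 45 min none differed from KCl by edgeR or DESeq2, with none at an unadjusted p under 0.05, against 0.233%. At 180 min 3 of the 6 differed from Bic and 2 from KCl, against the shares given with Ntrk2. Without basal TTX replicate 4 the 3 Inhba differences from Bic had adjusted p of 0.14, 0.204 and 0.194 and that from KCl 0.0574 in edgeR. With the replicate number as a block none of these 4 Inhba differences passed (adjusted p = 0.147, 0.305 and 0.138 against Bic and 0.0605 against KCl in edgeR), and with counts thinned to the smallest library the 3 from Bic did not (0.0945, 0.166 and 0.172).

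Igf1, the insulin-like growth factor, was read from low counts and was called in no comparison. Basal levels were 9.47, 15.9 and 19.2 CPM at 7DIV and 14.5, 12 and 12.7 CPM at 21DIV, and in the stimuli experiment 35.8, 39.1 and 28.8 CPM. The 7DIV and 21DIV ranges overlapped, with a log2 difference of -0.18 ± 0.29 (SE, edgeR adjusted p = 0.661). In basal TTX it was at 29.9, 25, 18.6 and 21.7 CPM, overlapping basal, and the log2 value of -0.55 ± 0.20 (SE, edgeR adjusted p = 0.0362) was under 1.5-fold. Without basal TTX replicate 1 or basal replicate 5 it passed, at -0.65 and -0.66. Microglia, a known source of Igf1, had 5 of 6 markers in the tables. The summed level of these was 7.16 to 9.3 CPM in basal and 2.66 to 4.07 CPM in basal TTX, where 1 of 2 tested was called lower. Markers of fibroblasts, another known source, had sums of 13.0 to 17.4 CPM in basal and 20.9 to 37.6 CPM in basal TTX. The 1 of them that was tested was called higher. Of 6 tested markers of GABAergic neurons, which include interneurons known to express Igf1, 0 were called. The part of these cell types in the Igf1 values was not tested.

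**Figure D4:**
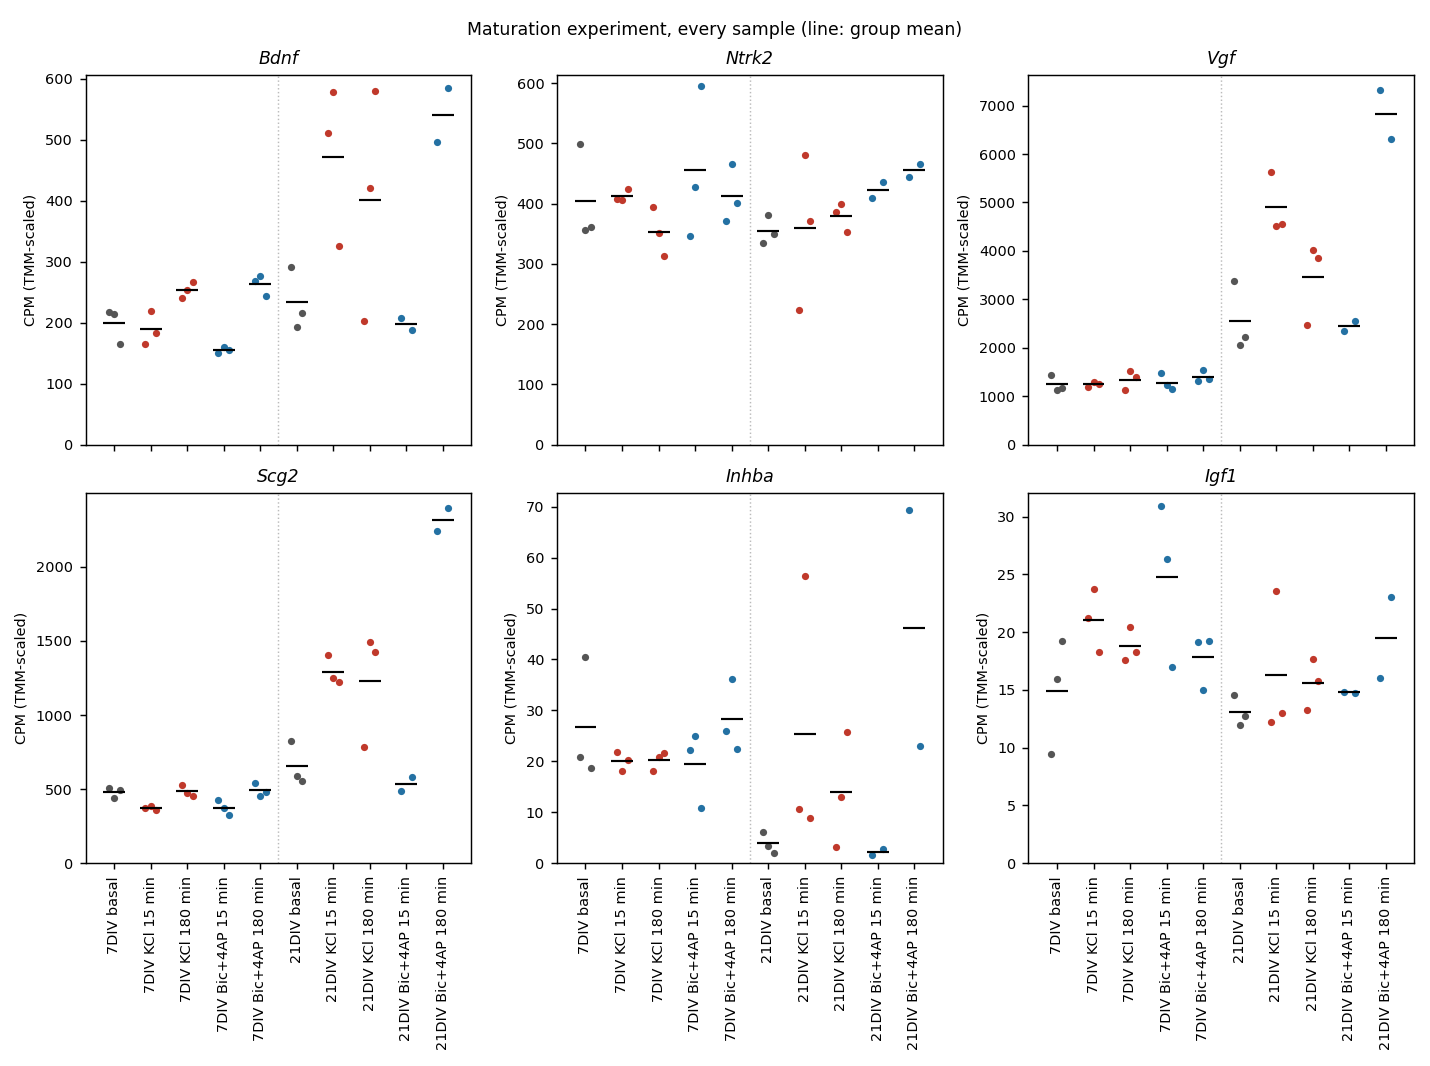
Level (CPM, within the maturation experiment) of the 6 genes in each sample of the 10 groups, 1 point a sample. Scg2 and Vgf are highest in the 2 samples of 21DIV Bic+4AP at 180 min, and replicate 1 of 21DIV KCl at 180 min lies near basal for Bdnf, Inhba, Scg2 and Vgf.

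In the joint test over all times of a stimulus, 4 of the 6 genes were called with KCl and 4 with Bic+4AP at 21DIV, against 7.65% and 12.3% of all genes. They were Bdnf, Inhba, Scg2 and Vgf. With Bic and with KCl in the stimuli experiment 2 of the 6 were called, Bdnf and Inhba, against 6.63% and 6.04%, and after washout 2, Bdnf and Scg2, against 13.2%. At 7DIV edgeR called none with KCl, with none at an unadjusted p under 0.05, or with Bic+4AP, with 3, against 2.29% and 0%. Between 15 and 180 min, 4 of the 6 rose under Bic+4AP at 21DIV, against 6% of all genes, and none was called by edgeR or DESeq2 under KCl (2.71% of all genes) or Bic+4AP (0%) at 7DIV, under KCl at 21DIV of the maturation experiment (0.902%) or under Bic alone (0.682%), with 1, 2, 1 and 1 of the 6 at an unadjusted p under 0.05. After washout 1 rose and 1 fell between these times, against 6.56% and 6.23%.

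Whether a response differed between the stages was tested directly, as the change from basal at 21DIV minus that at 7DIV. After 15 min of KCl 2 of the 6 genes differed, against 2.03% of all genes, and after 180 min of Bic+4AP 3 of the 6, against 4.95%. For KCl at 15 min the log2 differences were 1.34 ± 0.23 (SE, edgeR adjusted p = 0.00316) for Scg2 and 0.94 ± 0.23 (SE, edgeR adjusted p = 0.0281) for Vgf, while 1.08 ± 0.32 (SE, edgeR adjusted p = 0.0765) for Bdnf and 3.05 ± 0.84 (SE, edgeR adjusted p = 0.0513) for Inhba missed the threshold. The Vgf difference was lost without any of 6 libraries in turn (edgeR adjusted p from 0.0566 to 0.112). For Bic+4AP at 180 min they were 1.78 ± 0.24 (SE, edgeR adjusted p = 5.22e-05) for Scg2, 1.25 ± 0.24 (SE, edgeR adjusted p = 0.00289) for Vgf and 3.49 ± 0.86 (SE, edgeR adjusted p = 0.0164) for Inhba, and 0.81 ± 0.34 (SE, edgeR adjusted p = 0.171) for Bdnf was not called. The Inhba difference was lost without basal 21DIV replicate 3 (edgeR adjusted p = 0.0587) or Bic+4AP replicate 2 (2.47, edgeR adjusted p = 0.195). For KCl at 180 min none of the 6 differed by edgeR, with 2 at an unadjusted p under 0.05 and 1 called by DESeq2, against 0.775% of all genes. For Bic+4AP at 15 min none differed by edgeR or DESeq2, with none at an unadjusted p under 0.05, against 0.00851%.

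Among the other neurotrophins, Ntf3, neurotrophin 3, from 7DIV to 21DIV fell by 4.19 ± 0.49 (SE, edgeR adjusted p = 1.62e-05), rose in basal TTX by 2.17 ± 0.52 (SE, edgeR adjusted p = 0.00112) and at 180 min after washout fell by 1.75 ± 0.56 (SE, edgeR adjusted p = 0.0216). Of the other neurotrophin receptors and co-receptors, Ntrk3, the receptor of neurotrophin 3, rose with Bic at 15 min (0.83 ± 0.18 SE, edgeR adjusted p = 0.00273) and 45 min (0.90 ± 0.17 SE, edgeR adjusted p = 0.000301) and with KCl at 15 min (0.94 ± 0.17 SE, edgeR adjusted p = 0.000195), and 0 of 4 tested were called in basal TTX. Of 6 tested TrkB adaptors, 1 rose and 1 fell in basal TTX, Gab1 (0.73 ± 0.18 SE, edgeR adjusted p = 0.00147) and Shc3 (-1.92 ± 0.41 SE, edgeR adjusted p = 0.000385), against 10.8% of all genes called higher and 10.8% called lower.

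All 9 genes of the prohormone and proneurotrophin processing list were tested. Pcsk1, which encodes a convertase that cleaves prohormones in dense-core vesicles, rose at 21DIV with KCl, by 0.70 ± 0.20 (SE, edgeR adjusted p = 0.0269) at 15 min and 0.78 ± 0.20 (SE, edgeR adjusted p = 0.0181) at 180 min, and Bic+4AP at 180 min (1.21 ± 0.22 SE, edgeR adjusted p = 0.000292). It rose with Bic alone at 15 min (0.84 ± 0.17 SE, edgeR adjusted p = 0.00167), 45 min (1.00 ± 0.16 SE, edgeR adjusted p = 3.72e-05) and 180 min (0.85 ± 0.16 SE, edgeR adjusted p = 0.000998), and with KCl at 15 min (1.45 ± 0.16 SE, edgeR adjusted p = 2.34e-08) and 180 min (0.69 ± 0.17 SE, edgeR adjusted p = 0.046), and in basal TTX it fell by 2.62 ± 0.20 (SE, edgeR adjusted p = 2e-13). Plat, tissue plasminogen activator, which can activate the protease that cleaves pro-BDNF, rose at 21DIV after 180 min of Bic+4AP by 2.10 ± 0.33 (SE, edgeR adjusted p = 5.11e-05). Pcsk2, the other convertase of these vesicles, in the same comparison fell by 0.74 ± 0.17 (SE, edgeR adjusted p = 0.00278), with a stage difference of -1.02 ± 0.23 (SE, edgeR adjusted p = 0.0089), whereas it rose after 45 min of Bic alone (0.70 ± 0.13 SE, edgeR adjusted p = 0.000341) and 15 min of KCl (0.79 ± 0.13 SE, edgeR adjusted p = 7.98e-05) in the stimuli experiment. In basal TTX Pam, which amidates neuropeptides, fell by 1.75 ± 0.16 (SE, edgeR adjusted p = 1.76e-11) and Pcsk1n, an inhibitor of the Pcsk1 convertase, rose by 0.99 ± 0.10 (SE, edgeR adjusted p = 1.71e-10). With maturation 6 of the 9 rose and 1 fell, against 18.2% of all genes called higher and 14.9% called lower, and those that rose included Pcsk2 (1.30 ± 0.16 SE, edgeR adjusted p = 2.39e-05) and Cpe (1.28 ± 0.12 SE, edgeR adjusted p = 2.91e-06), which trims the cleaved peptides.

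Of the 4 other granins, Scg3 (secretogranin III) was called in both directions. It rose at 21DIV by 1.55 ± 0.25 (SE, edgeR adjusted p = 0.000343) after 15 min of KCl and by 2.00 ± 0.27 (SE, edgeR adjusted p = 8.29e-06) after 180 min of Bic+4AP. Chga, chromogranin A, also rose in these comparisons, by 0.67 ± 0.15 (SE) and 0.91 ± 0.16 (SE). Where stimuli were compared, Scg3 fell by 0.68 ± 0.14 (SE, edgeR adjusted p = 0.00145) after 15 min of KCl and fell by 1.01 ± 0.15 (SE, edgeR adjusted p = 6.15e-06) after 45 min of Bic, and in basal TTX it fell by 1.79 ± 0.12 (SE, edgeR adjusted p = 2.09e-14). The difference between the experiments was not tested.

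Of the activin and inhibin list, Smad7, an inhibitor of signalling by receptors of this family, rose with Inhba in several comparisons: by 1.77 ± 0.44 (SE, edgeR adjusted p = 0.00585) at 21DIV after 180 min of Bic+4AP, by 2.21 ± 0.36 (SE, edgeR adjusted p = 5.76e-05) after 45 min of Bic and by 2.12 ± 0.36 (SE, edgeR adjusted p = 0.000124) after 15 min of KCl. Inhbb, the beta B subunit, fell by 1.18 ± 0.31 (SE, edgeR adjusted p = 0.0168) after 15 min of KCl and fell by 1.67 ± 0.38 (SE, edgeR adjusted p = 0.00311) after 180 min of Bic+4AP at 21DIV. In basal TTX 3 of 11 tested rose, against 10.8% of all genes, and 1 fell, against 10.8%, which was Acvr1c, a type I receptor (-2.18 ± 0.24 SE, edgeR adjusted p = 3.2e-09). Of the insulin-like growth factor list, Irs2, an adaptor of the receptor, rose after 180 min of Bic+4AP at 21DIV (1.54 ± 0.39 SE, edgeR adjusted p = 0.00634), after 45 min of Bic (1.28 ± 0.25 SE, edgeR adjusted p = 0.000522) and at 7DIV after 180 min of KCl (1.43 ± 0.38 SE, edgeR adjusted p = 0.0413), where Irs1, another such adaptor, fell by 0.87 ± 0.24 (SE, edgeR adjusted p = 0.0488). Igfbp4, which binds the growth factor, rose with maturation by 2.47 ± 0.23 (SE, edgeR adjusted p = 2.12e-06) and in basal TTX by 0.84 ± 0.12 (SE, edgeR adjusted p = 1e-06). At 21DIV after 180 min of Bic+4AP it fell by 1.03 ± 0.24 (SE, edgeR adjusted p = 0.00397), with a stage difference of -1.16 ± 0.33 (SE, edgeR adjusted p = 0.0389), and after 15 min of KCl in the stimuli experiment it rose by 0.62 ± 0.14 (SE, edgeR adjusted p = 0.00357).

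The order of the group means of Bdnf in the stimuli experiment ran from 1377 ± 98.4 CPM (SD, n = 2) with Bic at 180 min, through Bic at 45 min and KCl and Bic at 15 min, whose ranges overlapped, then KCl at 45 and 180 min, to 619 ± 194 CPM (SD, n = 3) in basal. TTXw at 180 min followed at 63.3 ± 18.3 CPM (SD, n = 3), and basal TTX was last at 27.2 ± 4.01 CPM (SD, n = 4), overlapping TTXw at 15 and 45 min. Inhba ran from 187 ± 39.1 CPM (SD, n = 2) with Bic at 45 min, overlapping KCl at 15 min and Bic at 15 and 180 min, to 2.21 ± 0.683 CPM (SD, n = 3) at 15 min after washout, overlapping the other washout groups and basal TTX. For Scg2 and Vgf the 7 groups never in TTX lay together, from 1215 ± 83 CPM (SD, n = 2) with Bic at 180 min to 836 ± 215 CPM (SD, n = 2) with Bic at 45 min for Scg2, and the 4 TTX groups lay far below.

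Over the 11 condition means of the stimuli experiment the genes whose log2 levels followed a member most closely were, for Bdnf, Rgs2 (Pearson r 0.993), Cap2 (0.992) and Dlg1 (0.992). Over the 10 condition means of the maturation experiment the same genes had r of 0.461, 0.57 and 0.64. For Inhba they were Sgk1 (0.992), Arpp19 (0.991) and Nptx2 (0.991), with 0.488, -0.228 and -0.349 in the maturation experiment. For Ntrk2 they were Sorbs2 (0.992), Tmeff2 (0.992) and Sh3rf3 (0.989), with -0.263, -0.263 and 0.308. For Igf1 they were Osbpl1a (0.976), Maml3 (0.973) and Nlk (0.973), with 0.122, -0.317 and -0.642. Vgf was followed by Scg2 (0.995), Coch (0.994) and Gng4 (0.993), with 0.956, 0.832 and -0.323 in the maturation experiment. Scg2 was followed by Hdac9 (0.996), Adcyap1 (0.995) and Vgf (0.995), with -0.63, 0.696 and 0.956. The conditions with and without TTX formed separate clusters in the stimuli experiment, so that these r mostly set those apart, and they are a description with no test. Scg2, Vgf and Bdnf were close to each other in both experiments. For Scg2 with Vgf r was 0.995 in the stimuli and 0.956 in the maturation experiment. Bdnf had, in the same order, r of 0.967 and 0.948 with Scg2 and 0.974 and 0.872 with Vgf.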

How the data were processed

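RNA from 55 samples was sequenced as 3′ mRNA libraries (CEL-Seq2). The authors aligned reads to mm10 with STAR and counted 3′ reads per RefSeq transcript with ESAT. The deposited tables hold whole-number counts per transcript, not normalized, and whether molecular identifiers were collapsed is not given in the sources used here. Accessions were matched to symbols (80.8% and 80.9% of 97700 and 96722 transcripts) and each gene was read through its transcript with the most counts, so that unmatched transcripts were not used. In each experiment genes over 5 CPM in at least 2 samples were fitted in R 4.3.3 with edgeR 4.0.16 (TMM, quasi-likelihood F test, 1 coefficient a group, Benjamini-Hochberg over all tested genes). The basal stages were fitted on their 6 samples alone. A difference of responses was called at an adjusted p under 0.05 without a fold threshold. The SE of a log2 fold change was taken from the estimate and its F value. DESeq2 1.42.0, the likelihood ratio test, RLE factors, other filters, summed transcripts, thinned counts, fewer or more groups in the fit, a replicate block and leaving out each library were alternatives. Scripts were tested on simulated counts.

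The 6 genes and all lists were chosen with earlier results of these data known. In each list and comparison at most the 3 largest changes past the threshold are named, and for each of the 6 genes the 3 tested genes most like it over the condition means. Some results of the lists are not reported here. Replicates differed by more than counting noise in all 48 pairs checked (chi-square per degree of freedom 2.17 to 20.2). In the maturation experiment the pairs at 7DIV ran from 3.79 to 5.46 and those at 21DIV from 5.25 to 20.2. Its comparisons with stimuli shared 1 fit over both stages. Library totals differed as well, and the part of depth in these values was not tested. Promoter sequences are RefSeq's, on GRCm38.p6. Figures were drawn with matplotlib 3.10.9 in Python 3.11.15.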

Additional observations from a re-analysis of the deposited data

Results flagged for a closer look

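Responses that differed by the test of the difference itself are listed here with their log2 values from edgeR. Between the stages, as 21DIV minus 7DIV, they were Scg2 (1.34) and Vgf (0.94) after 15 min of KCl, and Inhba (3.49), Scg2 (1.78) and Vgf (1.25) after 180 min of Bic+4AP.

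Between TTX washout and Bic, as the response to washout minus that to Bic, they were Inhba at 15 min (-3.12), 45 min (-2.83) and 180 min (-2.30), and Ntrk2 (-0.52) and Scg2 (-0.94) at 180 min. Between washout and KCl they were Inhba at 15 min (-3.41), and Ntrk2 (-0.61) and Scg2 (-0.84) at 180 min. The truncated Ntrk2 transcript NM_008745.3 differed at 180 min by 0.76 from Bic and by 0.76 from KCl, in the direction opposite to the full-length transcript. All washout differences share the 4 basal TTX samples, in which Inhba rested on 2 to 13 counts. Of these 8 differences of the 6 genes, the replicate block left 3 called, Ntrk2 from KCl and Scg2 from Bic and from KCl, and thinned counts left the same 3 and Inhba from KCl at 15 min.

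No basal TTX sample stood apart from the other 3 for any of the 6 genes by Dixon's test, where the highest ratio of gap to range, 0.624, was under the critical value.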

How the results depend on the processing

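Of 50 single-gene results called by edgeR, 33 were called under every alternative and 39 under every alternative other than leaving out a library. Calls among 24 stage differences were 5, and 8 with the likelihood ratio test, 10 without a filter on low counts and 8 with DESeq2. Calls among 18 Bic against KCl values were 2, and 1 with counts summed over transcripts and 4 with only the compared groups in the fit. Calls among 36 washout differences were 8, and 13 without a filter, 4 with thinned counts and 3 with the replicate block. Summed counts add all transcripts of a gene, for Ntrk2 also the truncated one, and reads shared by several transcripts are counted more than once. With them the Ntrk2 differences of washout from Bic and KCl at 180 min were 0.015 and 0.0020 in place of -0.52 and -0.61. The fall of Ntrk2 in TTX was then not called. Leaving out 1 library moved the calls to between 3 and 8 for stage differences, 2 and 5 for KCl in the stimuli experiment (3 with all), 1 and 3 for washout (2 with all), and 4 and 10 for washout differences. Samples with the same replicate number did not deviate together (median r 0.000033 for maturation and 0.0076 for stimuli), and the replicate block lost 7 of the 50 calls. Depth limits Inhba most, with as few as 2 counts a library in TTX. Groups of 2 samples carry Bic, KCl and 21DIV Bic+4AP. The causes of these changes were not tested.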

Other observations

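The pathway lists held further changes between the basal stages. Of 9 tested genes of the activin and inhibin list other than Inhba, 1 rose and 4 fell from 7DIV to 21DIV. Smad3, which carries the signal of activin receptors to the nucleus, rose by 2.08 ± 0.35 (SE, edgeR adjusted p = 0.000337) on the log2 scale. Fst, follistatin, which binds and blocks activin, fell by 1.97 ± 0.51 (SE, edgeR adjusted p = 0.0081), and Acvr1, a type I receptor, fell by 1.31 ± 0.13 (SE, edgeR adjusted p = 4.91e-06). Of 8 tested genes of the insulin-like growth factor list other than Igf1, 3 rose and 1 fell, with Igfbp5 at 0.87 ± 0.18 (SE, edgeR adjusted p = 0.00197) and Irs1 at -1.10 ± 0.26 (SE, edgeR adjusted p = 0.00438). Of the neurotrophin co-receptors Sorcs2, which takes part in signalling by pro-BDNF, rose by 0.75 ± 0.18 (SE, edgeR adjusted p = 0.00434). Between the stages 33.1% of all tested genes were called.

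At 180 min after TTX washout Serpini1, neuroserpin, an inhibitor of tissue plasminogen activator, fell by 0.81 ± 0.12 (SE, edgeR adjusted p = 3.51e-06) against basal TTX, and Scg5, a granin-like chaperone of Pcsk2, fell by 0.62 ± 0.10 (SE, edgeR adjusted p = 6.57e-06). Gab1, an adaptor of receptor tyrosine kinases, rose by 0.86 ± 0.17 (SE, edgeR adjusted p = 0.000172). Of 6 tested markers of GABAergic neurons 5 were called lower in the same comparison, with summed levels of 4533 to 6255 CPM in basal TTX and 2041 to 2779 CPM at 180 min after washout. Their part in the other values was not tested.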
